A study of Mus musculus with 6 samples.

Results

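Small nucleolar RNAs (snoRNAs) and the genes named as their hosts were followed in cultured splenic CD8+ T cells labelled Runx3-/- or WT. Runx3 is a Runt-domain transcription factor that represses Cd4 in CD8+ T cells. The members were all genes whose symbol begins with Snord (C/D box), Snora (H/ACA box), Scarna (small Cajal body RNAs) or Snhg (small nucleolar RNA host genes) and that had an array row assigned to exactly 1 symbol. This gave 59 of 19938 genes, namely 31 Snord, 20 Snora, 3 Scarna and 5 Snhg genes. Where a gene had several such rows, the brightest by its mean over all 6 arrays stood for it. Another 41 rows with a member symbol carried several symbols and were left out.

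The groups were Runx3-/- and WT (Runx3 +/+) ICR mice, labelled as males of 6 weeks, with 3 mice of each genotype and 1 array per mouse. All cells were selected on anti-CD8 beads, activated through the T cell receptor with anti-CD3 and anti-CD28 for 2 days and then grown for 4 days with 100 units/ml of IL-2, the cytokine that drives T cell expansion. Runx3-/- cells were in addition sorted to take out CD11c+CD8+ dendritic cells before culture and CD4+CD8- cells after it, so genotype and extra sorting cannot be told apart. Replicates are named KO1 to KO3 and WT1 to WT3, with KO for the arrays labelled Runx3-/-.

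SnoRNAs are short RNAs that stay in the nucleolus and guide the modification of ribosomal and small nuclear RNAs by base pairing. C/D box snoRNAs carry the methyltransferase fibrillarin and direct 2'-O-methylation, whereas H/ACA box snoRNAs carry dyskerin and direct the conversion of uridine to pseudouridine. Scarna RNAs do the same for spliceosomal RNAs in the Cajal body. Most vertebrate snoRNAs are cut out of introns of host genes, many of which encode ribosomal proteins or translation factors. Snhg genes are long non-coding hosts, whose spliced RNA encodes no known protein in most cases.

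Of the boxes that define the classes, a C box and an ACA box are visible here, and the D and H boxes are not marked. The stretches come from 2 members for which RefSeq (build GRCm38.p6) holds sequence, because an annotated miRNA lies within each. The first is the 5' end of Snord33 (chr7:45126925-45126945, minus strand, intronic in Rpl13a), with the C box in capitals. The second lies near the 3' end of Scarna13 (chr12:105031077-105031141, minus strand, within Snhg10), with the ACA box in capitals, 3 bases before the end of this RNA.
Snord33: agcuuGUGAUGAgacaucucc
Scarna13: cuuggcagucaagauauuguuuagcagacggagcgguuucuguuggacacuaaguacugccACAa

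Of the 54 Snord, Snora and Scarna members, 53 lay within another gene of the reference, a protein coding gene for 38 and a long non-coding RNA for 15. The hosts of the 6 members that later pass a fold threshold are shown by the bases around their annotated starts, since hosts of the translation machinery often begin at a run of pyrimidines. Each line holds 50 bases before the start and 30 from it, with capitals on a run of at least 5 C or T bases beginning within 10 bases of the start. The rule also marks runs that begin before the start, and the run marked in Srcap lies wholly among the 50 bases before it. Ncl and Eef2 had no such run beginning that close to the annotated start. The Eef2 line does hold a pyrimidine run farther after it (tctcttcc), left unmarked by this rule, so the marking depends on the annotated start. The coordinates are chr10:81176581-81176660 (plus) for Eef2, chr1:86359426-86359505 (minus) for Ncl, chr7:127511933-127512012 (plus) for Srcap, chr4:132308628-132308707 (plus) for Snhg12, chr11:106500865-106500944 (plus) for Gm36220 and chr7:45128716-45128795 (minus) for Rpl13a.
Eef2: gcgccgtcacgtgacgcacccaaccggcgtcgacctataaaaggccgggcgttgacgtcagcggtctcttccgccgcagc
Ncl: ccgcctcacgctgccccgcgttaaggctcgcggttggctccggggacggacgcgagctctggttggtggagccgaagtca
Srcap: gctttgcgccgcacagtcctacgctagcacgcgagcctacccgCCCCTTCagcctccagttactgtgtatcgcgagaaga
Snhg12: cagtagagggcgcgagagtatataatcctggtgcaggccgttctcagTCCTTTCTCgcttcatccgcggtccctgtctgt
Gm36220: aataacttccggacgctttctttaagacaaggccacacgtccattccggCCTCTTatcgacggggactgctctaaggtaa
Rpl13a: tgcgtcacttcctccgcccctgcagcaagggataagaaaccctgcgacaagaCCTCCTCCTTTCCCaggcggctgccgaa

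Such a run, which may end before the start, was found at 19 of the 32 host genes with a window (59.4%). Among all genes with a window it was found at 9965 of 27025 (36.9%). Hosts without a window were left out of this count. Any of the RUNX core letters (TGTGGT and its variant TGTGGC, or TGCGGT and its variant TGCGGC), read on both strands of the 300 bases around the start, occurred at 18 of these 32 hosts (56.2%), against 12257 of 27025 genes (45.4%). Among the 5 Snhg members the run occurred at 2 and the RUNX letters at 3. These are descriptions of the letters in the windows.

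Several features of the arrays bear on all values below. Runx3 itself read 8.91, 9.11 and 9.27 in KO1 to KO3 and 8.77, 8.26 and 9.16 in WT1 to WT3 on the log2 scale (difference 0.37, SE 0.24, adjusted p = 0.521), so its row did not check the labels, and which part of the gene the row reads was not given in the sources used here. Xist was high in WT1 only (10.64, against 3.31 to 3.40 on the other 5). The Y-linked Eif2s3y was low in WT1 only (3.93, against 9.24 to 9.39). Both go against the label of WT1 as male. KO2 read low for S phase genes, with a mean deviation of -1.39 from the list's own mean, against 0.67 and 0.45 in KO1 and KO3 and -0.40 to 0.53 in WT arrays. CD8 T cell markers were bright on all arrays (mean log2 level 11.02 to 11.33 in KO-labelled and 10.92 to 11.14 in WT arrays), and all 8 dendritic and myeloid markers stayed below the table median of 4.26. Of 4 CD4 T cell markers, Cd4 (0.95) and Zbtb7b (0.64) were higher at the unadjusted threshold below, Foxp3 differed by -0.32 and Cd40lg was dim (mean level of the 4 markers 5.35 to 5.89 in KO-labelled and 5.14 to 5.43 in WT arrays). Of 5 NK markers, Klrb1c was lower (-1.56), Klre1 differed by -0.23 and 3 were dim (mean level of the 5 markers 3.57 to 3.72 in KO-labelled and 3.88 to 4.25 in WT arrays). Of 5 B cell markers, Cd79b was lower (-0.93) and 4 were dim, among them Cd79a (0.29) and Ms4a1 (0.16), which were above 0 (mean level of the 5 markers 3.78 to 4.01 in KO-labelled and 3.89 to 4.06 in WT arrays). The part of these features in the results was not tested.

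No snoRNA or Snhg gene passed the test between KO-labelled and WT cells after adjustment over all genes. Of the 59 members, 56 were tested, meaning that the highest of the 6 values reached the median of all values of the table. Snord118 (the U8 snoRNA, needed for processing of large-subunit rRNA), Snord52 and Snhg11 were dim on every array. Scarna8 and Snora41 reached the median only in KO-labelled cells. Adjusted p was under 0.05 for 0 of 56 members in limma, against 63 of 10021 genes (0.629%). At an unadjusted p under 0.05 there were 10 members (17.9%), 3 higher and 7 lower in KO-labelled cells, against 14.1% of all genes.

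The study's threshold, an unadjusted p under 0.05 and at least a 1.5-fold change, was applied here to limma p-values and the filter above. The study took its p-values from other software and also required signal above background. In this form, 6 of 56 members passed (10.7%), against 8.3% of all genes tested. Snord37, Snora75 and Snora30 were higher in KO-labelled cells (3 of 56, background 3.97%), and Snora44, Snord104 and Snord33 were lower (3 of 56, background 4.33%). The 3 KO-labelled values lay entirely above or below the 3 WT values for 13 members (23.2%), against 22.4% of all genes. Of these, 7 were higher and 6 lower, beside 11.6% and 10.9% of all genes. The higher ones were Snord37, Snora30, Snora20, Snora2b, Snora62, Snord85 and Snord96a (differences of 0.21 to 0.84), and the lower ones Snora44, Snord104, Snord33, Snord42a, Snord73b and Snord22 (-1.64 to -0.51), listed after their values were seen. These shares lie near those of all genes. The counts moved with single arrays. Without KO3, 1 member passed as higher and 9 as lower (6.65% of all genes passed). Without WT2, 1 passed as higher and 7 as lower (6.57% of all genes). Without KO2, 2 passed as higher and 5 as lower (7.77%), and without KO1, 4 and 2 (12.6%).

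**Figure D1:**
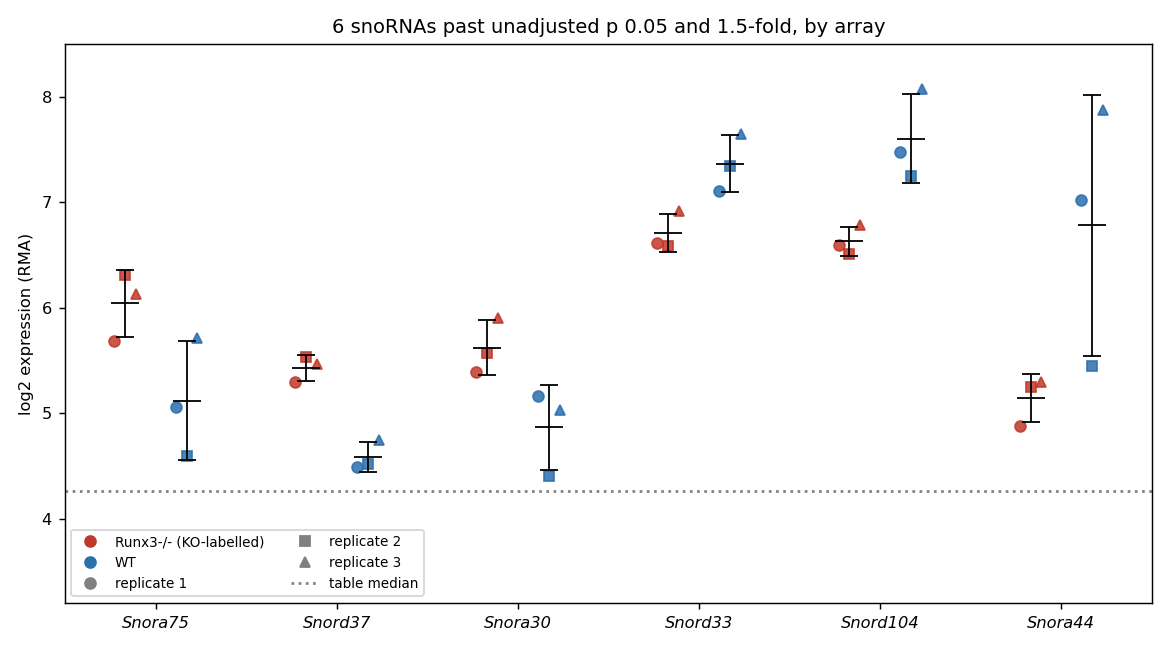
Log2 RMA values of the 6 members past the unadjusted threshold, KO-labelled arrays (red) left of WT arrays (blue) for each gene, with 1 point per array, the group mean ± SD (n = 3) as a bar and the table median as a dotted line. The groups overlap for Snora75 and are apart for the other 5.

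Snord37, a C/D box snoRNA whose human counterpart guides methylation of 28S rRNA, had the smallest p of all members. It read 5.29, 5.53 and 5.46 in KO1 to KO3, against 4.49, 4.52 and 4.75 in WT1 to WT3. All KO-labelled values lay above all WT values, with means of 5.43 ± 0.12 and 4.58 ± 0.14 (SD, n = 3 each). The log2 difference was 0.84 (SE 0.14, 1.80-fold, adjusted p = 0.0677). Its host Eef2, which encodes the elongation factor that moves the ribosome along mRNA, differed by 0.01 (SE 0.16, adjusted p = 0.987), leaving 0.84 between snoRNA and host. Snord37 passed the unadjusted threshold in all 17 alternative analyses, with differences from 0.74 to 0.93.

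Snora75, an H/ACA snoRNA in an intron of Ncl, read 5.68, 6.31 and 6.13 in KO-labelled cells and 5.06, 4.59 and 5.71 in WT cells. KO1 and WT3 overlapped, and the log2 difference was 0.92 (SE 0.31, 1.89-fold, adjusted p = 0.270). Ncl encodes nucleolin, an abundant nucleolar protein that binds pre-rRNA, and it differed by 0.08 (SE 0.15, adjusted p = 0.845). Another snoRNA of the same gene, the C/D box Snord82, read 5.45, 6.20 and 6.24, against 5.79, 5.14 and 6.03 in WT cells. Its groups overlapped, with a difference of 0.31 (SE 0.30, adjusted p = 0.664). Snora75 did not pass the unadjusted threshold without KO2, KO3, WT1 or WT2, each left out alone (0.66 to 0.89).

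Snora30 read 5.39, 5.57 and 5.90 in KO-labelled cells and 5.16, 4.40 and 5.03 in WT cells, with the same values on both of its rows. The groups were apart, and the log2 difference was 0.76 (SE 0.24, 1.69-fold, adjusted p = 0.256). It lies in Srcap, which encodes a chromatin remodeller that deposits the histone variant H2A.Z. Srcap read 8.07, 8.48 and 8.59, against 7.96, 7.56 and 8.14 in WT cells, a difference of 0.49 (SE 0.21, adjusted p = 0.361). This was the highest difference among the 25 hosts compared below. WT2 was the lowest array for both, and without WT2 or without KO3 Snora30 did not pass the unadjusted threshold (0.53 and 0.62).

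Snora44, in the non-coding Snhg12, had the difference farthest from 0 of all members. It read 4.88, 5.25 and 5.30 in KO-labelled cells, against 7.02, 5.44 and 7.88 in WT cells. The KO-labelled values lay close together and below all WT values, while the WT values spanned a wide range (5.14 ± 0.23 and 6.78 ± 1.23, SD, n = 3 each). The log2 difference was -1.64 (SE 0.56, 3.11-fold lower, adjusted p = 0.283). Snora16a, which lies in the same Snhg12, read 6.13, 5.77 and 7.58, against 7.13, 6.96 and 7.13 in WT cells. KO3 was above and KO1 and KO2 were below all WT arrays, with a difference of -0.58 (SE 0.44, adjusted p = 0.566). Snhg12 itself had no row with 1 symbol and was not analysed here. Without KO1, WT1 or WT3, Snora44 did not pass the unadjusted threshold (-1.51, -1.52 and -1.09).

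Snord104, a C/D box snoRNA in the non-coding Gm36220, read 6.60, 6.51 and 6.78 in KO-labelled cells, against 7.48, 7.25 and 8.07 in WT cells. The groups were apart, with means of 6.63 ± 0.14 and 7.60 ± 0.42 (SD, n = 3 each). The log2 difference was -0.97 (SE 0.23, 1.96-fold lower, adjusted p = 0.143), and it passed the unadjusted threshold in all 17 alternatives (-1.14 to -0.73).

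Snord33, whose C box is printed above and whose human counterpart guides methylation of 18S rRNA, read 6.62, 6.58 and 6.91 in KO-labelled cells, against 7.11, 7.34 and 7.64 in WT cells. The groups were apart, and the log2 difference was -0.66 (SE 0.18, 1.58-fold lower, adjusted p = 0.212). Snord35a, another C/D box snoRNA of Rpl13a, read 5.35, 5.21 and 6.26, against 6.38, 6.02 and 5.99 in WT cells. KO3 lay among the WT values, and the difference was -0.52 (SE 0.29, adjusted p = 0.458). Rpl13a, a protein of the large ribosomal subunit, had no row with 1 symbol. Without WT3, Snord33 did not pass the unadjusted threshold (-0.52).

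Snord42a, chosen for mention after its values were seen, was the C/D member next to this threshold. It read 5.76, 5.94 and 5.66 in KO-labelled cells and 6.32, 6.31 and 6.47 in WT cells. The groups were apart, with a difference of -0.58 (SE 0.14, 1.49-fold lower, adjusted p = 0.155). Its neighbour in Rpl23a, Snord42b, differed by -0.23 (SE 0.16, adjusted p = 0.537), and Rpl23a by -0.21 (SE 0.14, adjusted p = 0.527). Snord73b (-0.57, 1.48-fold lower), Snord57 (-0.52) and Snord22 (-0.51), also picked after the fact, had unadjusted p under 0.05 with changes below 1.5-fold (adjusted p of 0.324, 0.345 and 0.283).

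C/D and H/ACA members differed in their medians. The 29 tested C/D snoRNAs had a median log2 difference of -0.15 (quartiles -0.50 and 0.23, range -0.97 to 0.84), with 12 above 0 and 17 below. The 20 H/ACA snoRNAs had a median of 0.16 (quartiles 0.01 and 0.30, range -1.64 to 0.92), with 15 above 0 and 5 below. Over all 10021 genes the median was -0.01 (quartiles -0.22 and 0.18), with 4809 above 0 and 5212 below. The median distance from 0 was 0.30 over all 56 members and 0.21 over all genes, while the median SE was 0.21 and 0.19. Members of a class share arrays and often a host, so they are not replicates, and the difference between the classes was not tested.

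The H/ACA median rested in part on KO2. Without that array it was 0.003, with 10 above 0 and 9 below, whereas the C/D median was -0.21. After median or quantile normalization of the arrays, 12 H/ACA members were above 0 and 8 below. The H/ACA medians were then 0.096 and 0.092. The median of all genes also moved down, to -0.087 and -0.061, from -0.01 in the main analysis. These H/ACA counts therefore moved together with the whole table. The C/D median stayed below 0 in all 17 alternatives.

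**Figure D2:**
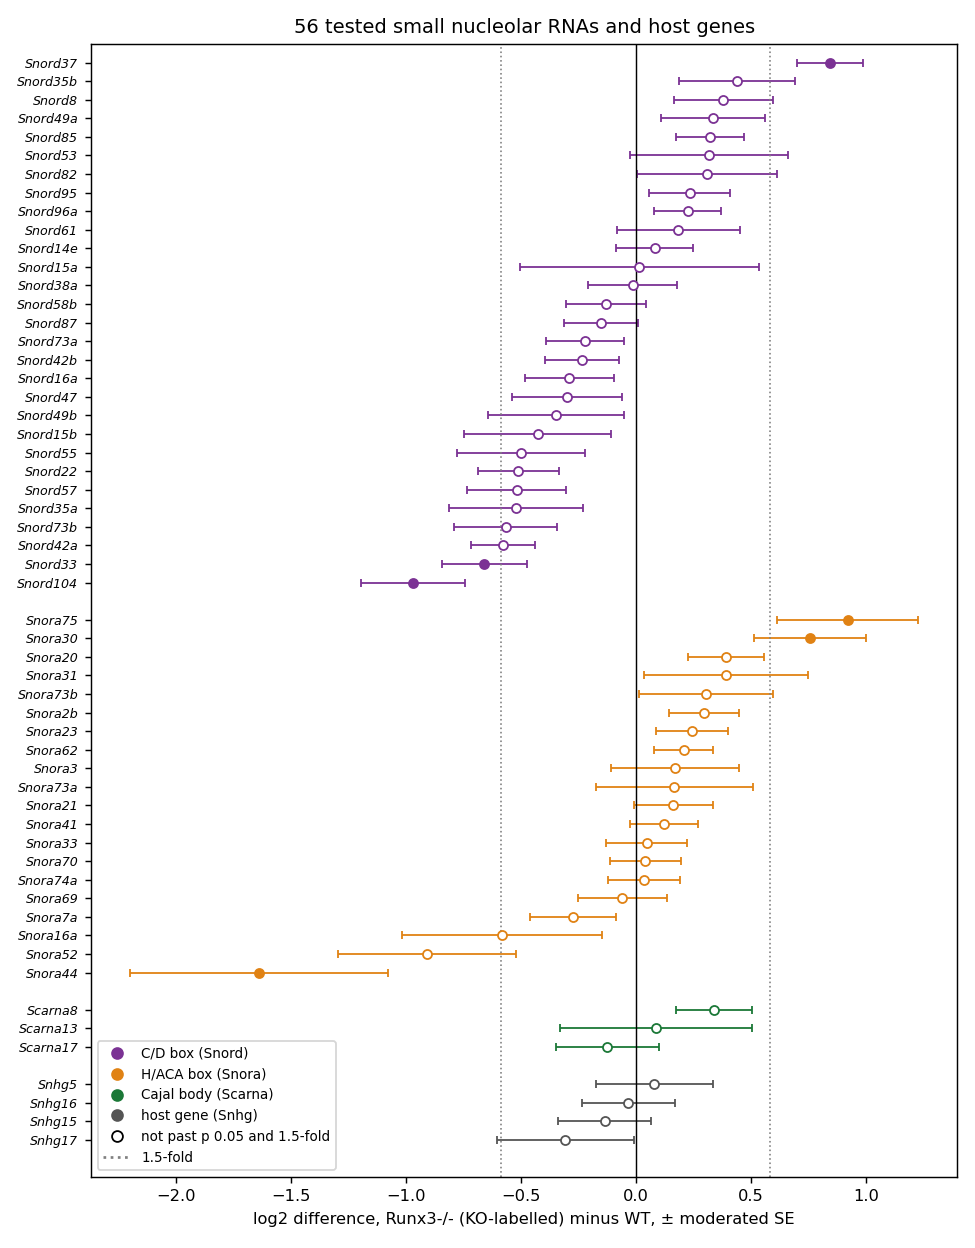
Log2 difference, KO-labelled minus WT, of the 56 tested members with moderated SE, ordered by size within the 4 classes. Filled points passed the unadjusted fold threshold and dotted lines mark 1.5-fold. Snora44 (-1.64), Snord104 (-0.97), Snora75 (0.92), Snora52 (-0.91) and Snord37 (0.84) lie farthest out.

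The arrays differed within each group. As a mean deviation from each member's own mean, C/D snoRNAs read -0.28, 0.02 and 0.09 in KO1 to KO3 and 0.09, -0.13 and 0.21 in WT1 to WT3. H/ACA snoRNAs read -0.15, 0.08 and 0.13 in KO1 to KO3 and -0.04, -0.15 and 0.13 in WT1 to WT3. In both classes KO1 and WT2 were the low arrays and WT3 or KO3 the highest, so the arrays of 1 genotype lay farther apart than the genotype means. KO1 held the lowest value of 14 members (25.0%), against 7.45% of all genes. WT2 was lowest for 16 members (28.6%, against 28.0% of all genes) and highest for 1 (1.79%, against 23.6%). KO2 held the highest value of 18 members (32.1%, against 18.7% of all genes), 10 of them H/ACA snoRNAs, and WT3 that of 16 (28.6%, against 10.8%). KO2, which was low in S phase and G2/M genes, was also lowest for 9 members (16.1%), against 34.8% of all genes.

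**Figure D3:**
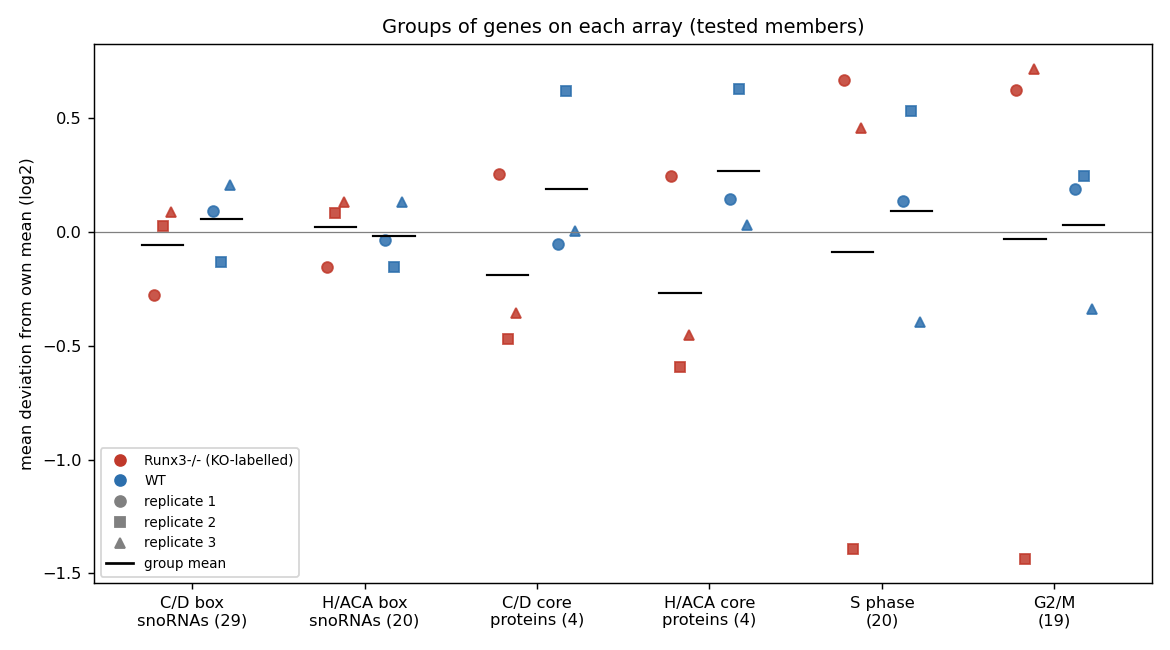
Mean deviation of each group of genes from its own mean (log2) on each array, KO-labelled arrays (red) left of WT arrays (blue), with a bar at the mean of 3 arrays. SnoRNA classes are lowest on KO1 or WT2, whereas both sets of core proteins are highest on WT2 and lowest on KO2, and S phase and G2/M genes are lowest on KO2.

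All 3 Scarna RNAs were tested and none passed either threshold. Scarna17 was the brightest member, at 10.91, 11.41 and 11.13 in KO-labelled cells and 11.38, 10.88 and 11.57 in WT cells, on both of its rows (difference -0.12, SE 0.22, adjusted p = 0.827). Scarna13, in Snhg10, read 6.17, 6.93 and 6.54, against 6.71, 5.53 and 7.13 in WT cells (0.09, SE 0.42, adjusted p = 0.946). WT2 was the lowest array for all 3 Scarna RNAs. Without WT2, Scarna13 differed by -0.38. Scarna8, in Haus6, a gene of the augmin complex of the mitotic spindle, read 4.25, 4.01 and 4.46, against 3.92, 3.74 and 4.03 in WT cells. These values lie around the table median, and KO2 fell below WT3 (0.34, SE 0.17, adjusted p = 0.407).

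The Snhg transcripts themselves overlapped between genotypes. Snhg5 was the brightest, at 8.49, 7.85 and 8.69 in KO-labelled cells and 7.97, 8.34 and 8.49 in WT cells (0.08, SE 0.25, adjusted p = 0.910). Snhg16 read 6.01, 5.81 and 6.40, against 5.93, 6.03 and 6.36 in WT cells (-0.03, SE 0.20, adjusted p = 0.960). Snhg15 read 4.81, 5.54 and 5.23, against 5.33, 5.27 and 5.39 in WT cells (-0.14, SE 0.20, adjusted p = 0.786). The WT arrays of Snhg15 lay close together, and the KO-labelled arrays fell on both sides of them. Snhg17 read 5.76, 6.69 and 6.19, against 6.80, 6.73 and 6.04 in WT cells (-0.31, SE 0.30, adjusted p = 0.660), and its other rows differed by -0.04 and 0.14. Snhg11 stayed between 3.50 and 3.98 in KO-labelled cells and between 3.63 and 3.75 in WT cells.

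A host gene with a tested row of its own was found for 29 snoRNAs (25 hosts). Because a row on a snoRNA also reads the same letters in the unspliced host RNA, mature snoRNA and host intron cannot be told apart. In most pairs the host lay closer to 0 than its snoRNA. Host rows and snoRNA rows often differed in level, and the part of this was not tested. Host differences ran from -0.41 (Eef1b2, a translation elongation factor subunit) to 0.49 (Srcap), and the median distance from 0 was 0.30 for the snoRNAs and 0.14 for their hosts. The snoRNA was the farther from 0 in 22 of 29 pairs, and both had the same sign in 15 of 29. Median SE was 0.19 for snoRNAs and 0.17 for hosts. Across the 29 pairs Pearson's r was 0.33 and Spearman's rho 0.33, over pairs that share arrays and in part hosts. Of the hosts, 7 were above 0 and 18 below, and 0 of 25 passed the unadjusted fold threshold, beside 8.3% of all genes. Without KO2 the snoRNA was farther out in 17 of 28 pairs.

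**Figure D4:**
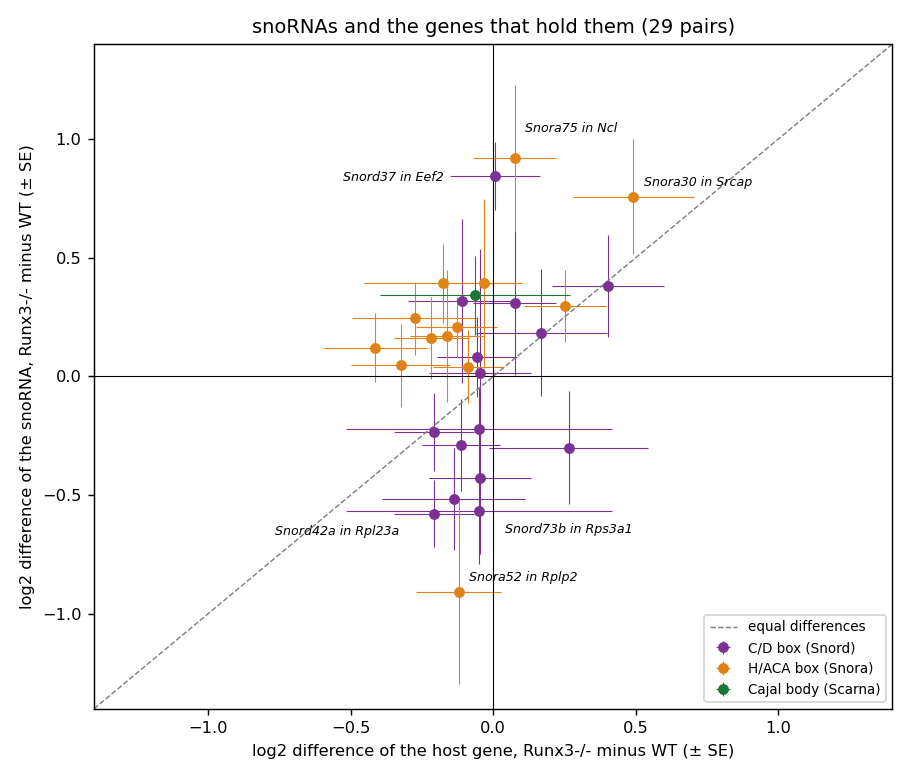
Log2 difference of each snoRNA (vertical axis) against that of the gene that holds it (horizontal axis), KO-labelled minus WT, with moderated SE, for 29 pairs. Hosts lie between -0.41 and 0.49, and Snora75, Snord37 and Snora52 lie far from the dashed line of equal differences.

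Snora52, in Rplp2, was picked after its values were seen as the pair with a large gap on the lower side. It read 8.51, 8.00 and 9.40 in KO-labelled cells and 9.77, 9.02 and 9.86 in WT cells, with overlap between KO3 and WT2. The difference was -0.91 (SE 0.39, adjusted p = 0.357), and Rplp2, a stalk protein of the large ribosomal subunit, differed by -0.12 (SE 0.15, adjusted p = 0.736). The Rplp2 row read only 5.25 to 5.59 across arrays, far below other hosts that encode ribosomal proteins, such as Rpl4 (12.29 to 12.63). How well this row reads the Rplp2 mRNA was not tested, which limits what the gap shows.

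Exactly 2 members lay in each of 10 host genes. In 8 of these the 2 differences had the same sign. Both were above 0 in Ncl, Rack1 (Snord95 0.23, Snord96a 0.23) and Snhg3 (Snora73a 0.17, Snora73b 0.30). Hosts with both below 0 included Rpl13a, Rpl23a, Rps3a1 (Snord73a -0.22, Snord73b -0.57) and Snhg12. The signs were opposite in 2410006H16Rik (Snord49a 0.34, Snord49b -0.35) and in Rps3 (Snord15a 0.01, Snord15b -0.43). None of these 20 snoRNAs passed the adjusted test, and members of a host can share sequence and therefore probes.

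The core proteins that package snoRNAs into ribonucleoproteins (snoRNPs) had means below those of WT cells, with wide gaps between arrays of 1 genotype. All 8 tested core proteins had differences below 0, with a median of -0.39. Nhp2, an H/ACA core protein, read 8.58, 7.41 and 7.74, against 8.74, 9.14 and 8.68 in WT cells, with KO-labelled values below all WT values (-0.94, SE 0.31, adjusted p = 0.267). Fbl, which encodes fibrillarin, read 8.51, 7.62 and 7.66, against 8.44, 8.98 and 8.59 in WT cells, with KO1 among the WT values (-0.74, SE 0.28, adjusted p = 0.312). Both passed the unadjusted fold threshold, as 2 of 8, beside 4.33% of all genes called lower. Of all 10021 genes, 5212 were below 0.

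The remaining core proteins did not pass it. Among C/D proteins, Snu13, which binds the k-turn of the box RNA, differed by -0.33 (SE 0.25), and the scaffold proteins Nop58 and Nop56 by -0.31 (SE 0.32) and -0.14 (SE 0.25). Among H/ACA proteins, Gar1 differed by -0.50 (SE 0.33), the pseudouridine synthase Dkc1 by -0.46 (SE 0.28) and Nop10 by -0.24 (SE 0.19). As a mean deviation, the core proteins read 0.25, -0.53 and -0.40 in KO1 to KO3 and 0.04, 0.62 and 0.02 in WT1 to WT3. KO1 thus lay above WT1 and WT3. Without WT2, 6 of 8 were below 0 (median -0.19), and without both KO2 and WT2, 4 of 8 (median -0.02).

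Of 20 tested genes for snoRNP assembly and maturation, 16 were below 0 (median -0.19), 0 were higher and 1 lower at the unadjusted threshold (3.97% and 4.33% of all genes). The lower one was Rpap3 (-0.75, SE 0.30), a subunit of the R2TP chaperone complex. Znhit3 (-0.60), Phax (-0.31) and Nolc1 (-0.63) followed by p and did not pass. Of 32 tested snoRNA host genes in a second list, taken from general knowledge, 24 were below 0 (median -0.12). At the unadjusted threshold 2 were higher and 0 lower, beside the same 3.97% and 4.33% of all genes. Eif4a2, an RNA helicase of translation initiation, read 9.63, 10.22 and 10.22, against 9.36, 9.59 and 9.32 in WT cells (0.60, SE 0.20, adjusted p = 0.270). Prpf39, a splicing factor, read 7.83, 8.52 and 8.20, against 7.77, 7.27 and 7.64 in WT cells (0.62, SE 0.22, adjusted p = 0.294). For both, all KO-labelled values lay above all WT values, as for 11.6% of all genes. None of 10 imprinted C/D snoRNAs known from brain had a row with 1 symbol.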

How the data were processed

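Total RNA (RNeasy micro kit) was labelled with an Affymetrix WT cDNA kit and hybridised to mouse gene ST 1.0 arrays. Such columns retain short RNAs poorly, and array rows do not separate a snoRNA from its host intron. The authors normalised the scanner files by RMA with GC correction in Partek (versions not given in the sources used here). The deposited table holds log2 values for each of the 6 arrays, without detection calls. RMA compresses low values, so changes of dim genes are understated. The number of arrays limits the precision.

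Of 35399 rows, 21789 had 1 gene symbol, 1621 several and 11989 none. Genes whose highest value reached the table median (4.26) were tested, 10021 in all. Groups were compared with limma 3.58.1 in R 4.3.3 (lmFit, eBayes, two-sided, no covariate), with Benjamini-Hochberg adjustment over all genes tested. Differences are KO-labelled minus WT and SEs are moderated. Since each array is 1 mouse, p-values measure the spread between mice and cultures. In simulated data on 10021 genes, 33 of 50 log2 changes of 1 were called. Errors there were independent between genes, without the shifts that genes share on the real arrays. The share called is therefore no measure of power for the members.

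All 59 members matched the RefSeq gene table (GRCm38.p6), used for hosts and printed sequences. That table gave no strand, so hosts were assigned by position alone, and where several genes held a snoRNA the shortest with a tested row was compared. Sequences of the snoRNAs themselves were not analysed beyond the 2 printed.

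Members and lists were chosen with earlier results of these data known. Named were members past the unadjusted fold threshold, all Scarna and Snhg genes, members sharing a host with these, core proteins and up to 4 genes of smallest p in other lists. Alternatives were the filter, scaling, row choice, replicate block, spread prior, array weights and left-out arrays. Figures were drawn with matplotlib 3.10.9. One host gene is counted but its values are not reported here.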

Additional observations from a re-analysis of the deposited data

How the results depend on the processing

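With a main count of 3 members lower at the unadjusted fold threshold, 7 were lower after median normalization, 6 after quantile normalization and 7 without both KO2 and WT2 (8.52%, 8.8% and 9.15% of all genes passed in either direction, against 8.3% in the main analysis). The 2 normalizations also lowered the median difference of all genes, to -0.087 and -0.061, from -0.01 in the main analysis. With a main count of 3 higher, 1 was higher in the unmoderated model, 5 with array weights and 1 without both KO2 and WT2 (5.07%, 9.64% and 9.15% of all genes). Leaving out 1 array at a time gave 2 to 9 lower and 1 to 4 higher members (6.57% to 12.6% of all genes), with 0 past adjusted p each time. Array weights brought 4 members past adjusted p (Snora44, Snord104, Snord37 and Snord42a), as 547 genes of the whole table passed there, against 63 in the main analysis. In the unmoderated model Snord37, Snord104 and Snord33 passed the unadjusted threshold, and it called 0 genes of the table after adjustment. The H/ACA median ran from 0.0029 to 0.23 with 1 array left out and was 0.015 without both KO2 and WT2.

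Leaving out 1 array turned the sign of several small differences, with ranges of -0.38 to 0.42 for Scarna13, -0.32 to 0.022 for Scarna17, -0.31 to 0.056 for Snhg15, -0.20 to 0.10 for Snhg16 and -0.093 to 0.33 for Snhg5. Array weights gave -0.22 for Scarna13 and 0.22 for Snhg16, and without both KO2 and WT2 they were -0.57 and 0.060. The cause was not tested. Same-numbered arrays correlated at -0.13, -0.37 and -0.13 in their deviations from the group means, so the numbers were not taken to pair mice. The replicate block gave 0 members past adjusted p, 4 lower and 3 higher, and 1 gene of the table past adjusted p, against 63 without it. Snord33 did not pass the unadjusted threshold with array weights (-0.44). All 3 members too dim to test stayed below the table median, which limits any change to be seen there.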
